A study of Mus musculus with 6 samples.

Results

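The Notch genes taken here were 9 of the 7384 genes in the deposited tables. They were taken by name from a list of 10 symbols, which was drawn up with earlier results of these data known. The list held the receptors Notch1, Notch2, Notch3 and Notch4, the ligands Jag1 and Dll4, the nuclear effector Rbpj, and the target repressors Hes1, Hey1 and Heyl. Hey1 was not in the tables and could not be analysed. Gene expression was measured by RNA sequencing in cultured vascular smooth muscle cells of mouse aorta, with 3 libraries from cells given an siRNA against Sirt6 (siSirt6) and 3 from Control cells, all after 48 h. Sirt6 encodes a nuclear sirtuin that removes acyl groups from histones. No strain, age, sex or passage was given in the sources used here, nor what the Control cells received in place of the siRNA, nor whether the libraries of a group came from separate cultures. The p-values below therefore measure the spread between these libraries, which may be technical.

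Notch signalling runs between neighbouring cells. A ligand of the Jagged or Delta-like family on one cell binds a Notch receptor on the next, ADAM proteases and then gamma-secretase cut the receptor, and its freed intracellular part enters the nucleus, where it joins the DNA-binding protein RBPJ and a Mastermind coactivator. The complex turns on genes for HES and HEY repressors, and without the receptor fragment RBPJ recruits corepressors. In arteries Notch3 is known as the receptor of smooth muscle and Jag1 as a ligand that smooth muscle both receives from the endothelium and makes itself, while Notch4 and Dll4 are known mainly from endothelial cells.

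The tables held between 14458847 and 15526399 reads per library, and the full depth of the libraries is unknown. Values are normalised read counts, that is, reads divided by one factor per library. Sirt6 itself (GRCm38 chr10:81621785-81627797) was lower in every siSirt6 library (44.5, 59.8 and 63.5) than in any Control library (252, 257 and 270.4), a log2 fold change of -2.21 ± 0.141 (SE). The smooth muscle label was checked on 16 markers, of which 13 were in the tables and tested. Of these, 10 were higher and 3 lower, beside 50.5% and 49.3% of all genes tested. Their summed level was between 109498 and 110091 in Control and between 164882 and 166979 in siSirt6. Acta2 alone had a mean of 58253 in Control and 96836 in siSirt6. Adventitial fibroblast markers, 9 of them tested, summed to between 103491 and 104468 in Control and between 88824.5 and 89767 in siSirt6. Among those, Gsn had a mean of 72100 in Control and 57433 in siSirt6. These sums therefore do not set smooth muscle cells apart from fibroblasts. Nearly every listed gene differed between the groups: 99.8% of the 7179 genes tested passed an adjusted p of 0.05 (limma on log2(value + 1), Benjamini-Hochberg), so a call alone says little about a gene listed there, and direction and size carry the description below.

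In siSirt6 cells, transcripts of the most abundant receptor, Notch3, and of the ligand Jag1 fell to 0.582 and 0.558 of their Control levels, and Rbpj fell to 0.708. Notch1 and Notch2 fell less, to 0.800 and 0.789. Dll4 rose 4.87-fold and Heyl 3.37-fold, both from low levels, and Notch4 and Hes1 rose 1.39-fold and 1.35-fold. Thus 4 of the 9 tested genes were higher and 5 lower, beside 50.5% and 49.3% of all genes tested. Group ranges did not overlap for any of the 9, as was so for 96.8% of all genes tested.

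**Figure D1:**
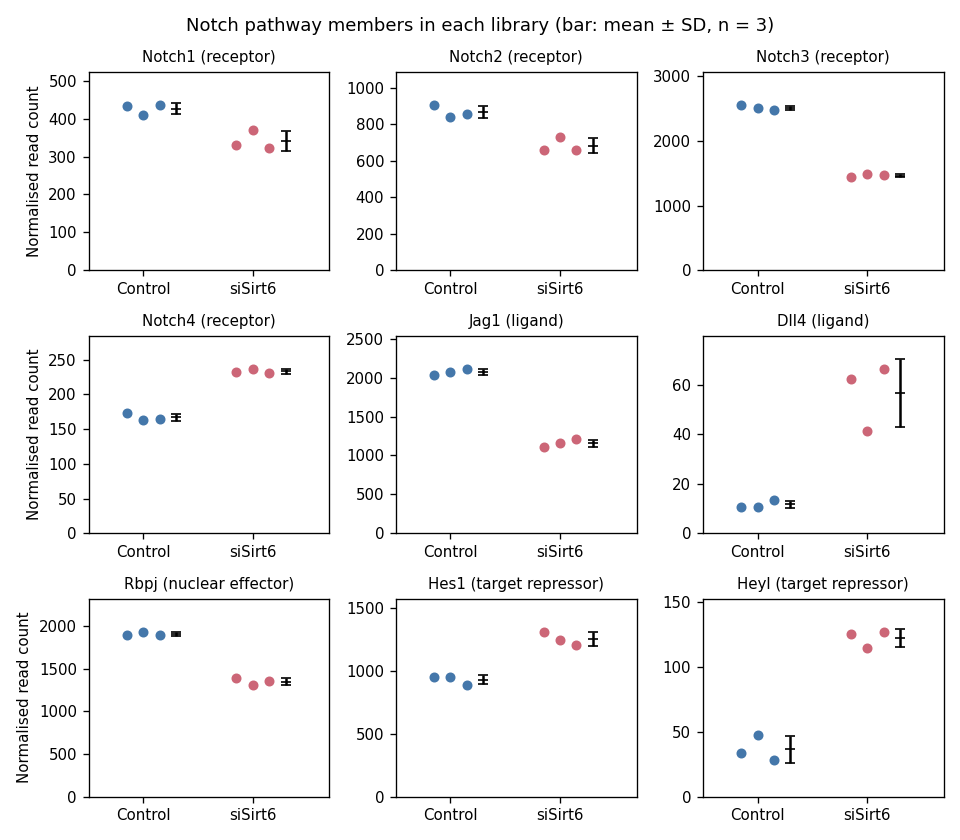
Normalised read count (y axis, linear from 0) of the 9 Notch genes in each of the 3 Control and 3 siSirt6 libraries (points), with the mean and SD of each group (bars). Notch1, Notch2, Notch3, Jag1 and Rbpj lie lower in all siSirt6 libraries, and Notch4, Dll4, Hes1 and Heyl lie higher.

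Among the receptors, Notch3 (chr17:32120820-32166852, minus strand) stood at 2551, 2509 and 2485 in Control and at 1442, 1483 and 1467 in siSirt6. The libraries of each group lay close together, far apart from the other group. The fall was -0.78 ± 0.036 (SE) on the log2 scale (limma adjusted p = 1.19e-19), and 6.69% of all genes tested fell further. Notch2 (chr3:98013527-98150361, plus strand), a receptor found in many tissues, went from 905, 838 and 859 to 659, 732 and 662. Notch1 (chr2:26457903-26516663, minus strand), best known from T cells and endothelium, went from 434, 411 and 436 to 331, 371 and 322. In both genes siSirt6 replicate 2 lay nearest to the Control libraries. Their log2 fold changes were -0.34 ± 0.057 and -0.32 ± 0.078 (SE; limma adjusted p = 2.09e-06 and 3.22e-04), and 27.2% and 29.0% of all genes tested fell further. Notch4 (chr17:34564268-34588503, plus strand) moved the other way, from 173, 164 and 165 to 232, 237 and 230.0, a log2 fold change of 0.48 ± 0.102 (SE; limma adjusted p = 8.56e-05). It was the only one of the 4 receptors that rose, and 16.5% of all genes tested rose further.

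Set against the length of the longest annotated transcript, which makes levels of different genes comparable, Notch3 was the leading receptor in every library. Per kilobase, Notch3 stood at 313.7 ± 4.15 in Control and 182.7 ± 2.63 in siSirt6 (SD, n = 3). Notch2 followed at 82.6 ± 3.23 and 65.2 ± 3.95, Notch1 at 45.0 ± 1.46 and 36.0 ± 2.77, and Notch4 at 25.4 ± 0.741 and 35.4 ± 0.549. In siSirt6 the levels of Notch1 and Notch4 per kilobase differed by less than the SD of Notch1, so these neighbours in the order could not be told apart there. The summed receptor level went from 466.7 ± 8.39 to 319.2 ± 9.32. The share of Notch3 in that sum went from 67.2% ± 0.587 to 57.2% ± 1.04, and that of Notch4 from 5.43% ± 0.0610 to 11.1% ± 0.184. These shares, and those of the ligands, were chosen as a description after the values were seen. Which transcript of each gene the cells used was not measured, so these shares hold only as far as the annotated lengths do.

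**Figure D2:**
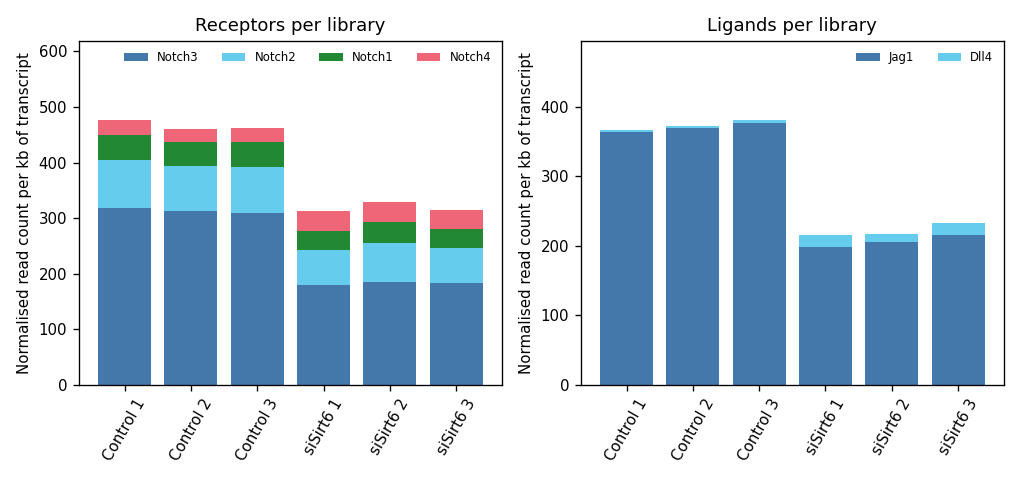
Normalised read count per kilobase of the longest annotated transcript (y axis, linear from 0), stacked by gene, for the 4 receptors (left) and the ligands Jag1 and Dll4 (right) in each library. The summed receptor level lies near 466.7 in Control and 319.2 in siSirt6, with Notch3 the largest part in each bar; Dll4 is a thin band above Jag1.

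Of the ligands, Jag1 (chr2:137081456-137116644, minus strand), which encodes Jagged1, stood at 2040.3, 2076 and 2117 in Control and at 1114, 1156 and 1206 in siSirt6. No siSirt6 library came near a Control library. The fall was -0.84 ± 0.040 (SE) on the log2 scale (limma adjusted p = 4.70e-19), the largest fall of the 9 genes, and 5.64% of all genes tested fell further. Dll4 (chr2:119325784-119335962, plus strand), the Delta-like ligand of sprouting and arterial endothelium, stood at 10.7, 10.7 and 13.5 in Control and at 62.3, 41.2 and 66.6 in siSirt6. These values rest on 11, 11 and 14 reads against 63, 40 and 64. All siSirt6 libraries lay above all Control libraries, with siSirt6 replicate 2 the lowest of its group. The rise was 2.17 ± 0.279 (SE) on the log2 scale (limma adjusted p = 2.22e-08), and 0.571% of all genes tested rose further. Per kilobase, Jag1 went from 370.2 ± 6.84 to 206.5 ± 8.19 and Dll4 from 3.11 ± 0.431 to 15.1 ± 3.62 (SD, n = 3). Dll4 thus took 0.832% ± 0.10 of the level of both ligands in Control and 6.81% ± 1.51 in siSirt6, and Jag1 remained the more abundant in each library.

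Rbpj (chr5:53466152-53657362, plus strand), through which all 4 receptors act on DNA, stood at 1893, 1935 and 1894 in Control and at 1389, 1304 and 1357 in siSirt6. The groups were well apart, with a log2 fold change of -0.50 ± 0.039 (SE; limma adjusted p = 2.87e-13), and 16.5% of all genes tested fell further. Its processed pseudogene Rbpj-ps3 was also in the tables, with 15, 17 and 14 reads in Control and 4, 10 and 3 in siSirt6, so few reads compared with Rbpj that its share in the Rbpj values would be small. Whether reads of Rbpj were lost to pseudogenes was not tested. Per kilobase, Rbpj lay at 347.7 ± 4.34 in Control and 246.2 ± 7.85 in siSirt6.

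The target repressors Hes1 and Heyl went up. Hes1 (chr16:30064384-30067796, plus strand), a basic helix-loop-helix repressor that Notch shares with other pathways, stood at 949, 952 and 891 in Control and at 1311, 1242 and 1206 in siSirt6. The lowest siSirt6 library lay well above the highest Control library. The rise was 0.43 ± 0.048 (SE) on the log2 scale (limma adjusted p = 1.17e-09), and 19.8% of all genes tested rose further. Heyl (chr4:123233556-123249875, plus strand), a repressor of the HEY family known from smooth muscle and pericytes, stood at 33.2, 47.7 and 28.0 in Control and at 126, 114 and 127 in siSirt6. The Control libraries spread more widely in proportion to their mean than the siSirt6 libraries, and the groups remained far apart. The rise was 1.76 ± 0.189 (SE) on the log2 scale (limma adjusted p = 5.33e-10), and 0.961% of all genes tested rose further. Past the threshold and at least 2-fold higher were 2 of the 9 genes, Heyl and Dll4, beside 4.01% of all genes tested. At least 2-fold lower were 0 of the 9, beside 3.71%. Per kilobase, Hes1 was the most abundant of the 9 in every library (634.2 ± 23.4 and 853.7 ± 36.4), whereas Heyl lay at 8.0 ± 2.25 and 27.0 ± 1.52. Of 11 listed symbols of HES and HEY repressors and other direct targets, only these 2 were in the tables, so the others could not be analysed.

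The Notch genes differ in transcript length, from 1468 nt for Hes1 to 10500 nt for Notch2, and fold changes were therefore also compared after a smooth trend over all genes, fitted on length and GC, had been subtracted. In that comparison 7 of the 9 passed the threshold, 4 higher and 3 lower, beside 74.4% of all genes tested in either direction, 37.4% higher and 37.0% lower. Jag1 and Notch3 remained lower, at -0.62 and -0.55 on the log2 scale, and Rbpj at -0.24. Notch1 and Notch2 lost their calls, at -0.098 (limma adjusted p = 0.252) and -0.086 (limma adjusted p = 0.165). The rise of Notch4, a long transcript, was 0.48 as deposited and 0.71 with the trend taken out, that of Hes1 0.43 and 0.17, and those of Heyl and Dll4 were 1.84 and 2.17 after subtraction.

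**Figure D3:**
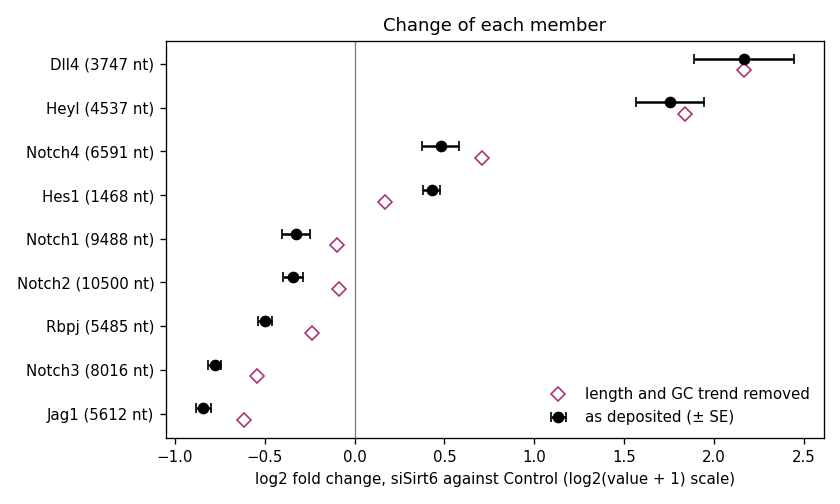
Log2 fold change of each Notch gene in siSirt6 against Control (x axis), as deposited with its standard error (filled circles) and after subtracting the trend with length and GC (open diamonds); the length of the longest transcript is given beside each name. Notch1 and Notch2 move close to 0, at -0.098 and -0.086, and Jag1 and Notch3 stay at -0.62 and -0.55.

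Ratios between these genes within a library do not depend on how the libraries were scaled. They keep any trend with length and GC, which was not subtracted from them. Of 36 pairs compared on the log2 ratio of normalised read counts, 31 had groups that did not overlap. Those log2 ratios were taken on value + 1, which leaves a slight dependence on scaling for low genes. The share among pairs of all genes was not computed. Group ranges of 96.8% of single genes tested did not overlap, so the count of pairs says little about the Notch genes. With 3 libraries against 3 an exact 2-sided permutation test cannot go below p = 0.1, and the lowest value adjusted over the pairs was 0.116, so none could pass 0.05. The ratio of Notch3 to Notch4 counts went from 15.1 ± 0.285 to 6.28 ± 0.0903 (SD, n = 3). The ratio of Rbpj to Hes1 counts went from 2.05 ± 0.0673 to 1.08 ± 0.0410. Jag1 to Rbpj, which both fell, went from 1.09 ± 0.0246 to 0.859 ± 0.0493. The ratio of Notch3 to Jag1 stood at 1.21 ± 0.0382 and 1.26 ± 0.0419, with groups that overlapped, a difference of 0.062 in log2 ratio. The same held for Notch1 to Notch2, at 0.492 ± 0.0138 and 0.499 ± 0.0113, and for Notch4 to Hes1, at 0.180 ± 0.00702 and 0.186 ± 0.00782. Groups also overlapped for Notch2 to Rbpj and for Dll4 to Heyl.

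Sequence before the start site was available for 7 of the 9 genes, all but Hes1 and Heyl, as windows of 250 bases upstream of the RefSeq start (GRCm38.p6; Rbpj has a pair of starts). They were searched on both strands for TGGGAA, the core letters that RBPJ binds, and for CACGTG and CACGCG, letters that HEY and HES repressors bind. TGGGAA was found in 21.6% of all 32851 promoter windows of that length, CACGTG in 6.02% and CACGCG in 7.62%. Among the Notch genes, TGGGAA was found only before Rbpj, where 1 match begins 149 bases before the upstream start; its reverse complement TTCCCA begins 65 bases before that start, inside an annotated exon, and is not shown. CACGCG was found before Jag1, Dll4 and Notch2, and CACGTG before none; no matches overlapped. Shown are Notch3 and Jag1, which fell most, Rbpj, and Dll4, which rose most, 5′ to 3′ in the direction of the gene, with matches in capitals and with bases inside annotated exons left out. A match is a matter of letters and no evidence of binding, which was not measured.
Notch3, chr17:32166891-32167140, minus strand: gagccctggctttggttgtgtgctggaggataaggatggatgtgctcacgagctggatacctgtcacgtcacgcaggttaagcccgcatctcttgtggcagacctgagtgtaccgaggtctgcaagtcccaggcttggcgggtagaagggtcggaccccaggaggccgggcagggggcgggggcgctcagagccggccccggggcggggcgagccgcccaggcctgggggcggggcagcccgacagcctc
Jag1, chr2:137116645-137116770, minus strand: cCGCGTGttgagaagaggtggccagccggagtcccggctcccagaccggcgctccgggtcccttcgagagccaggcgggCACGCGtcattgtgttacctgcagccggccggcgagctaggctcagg
Rbpj, chr5:53590096-53590213, plus strand: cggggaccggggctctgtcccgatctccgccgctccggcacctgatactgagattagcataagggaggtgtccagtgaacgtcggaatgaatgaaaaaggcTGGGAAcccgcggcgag
Dll4, chr2:119325534-119325783, plus strand: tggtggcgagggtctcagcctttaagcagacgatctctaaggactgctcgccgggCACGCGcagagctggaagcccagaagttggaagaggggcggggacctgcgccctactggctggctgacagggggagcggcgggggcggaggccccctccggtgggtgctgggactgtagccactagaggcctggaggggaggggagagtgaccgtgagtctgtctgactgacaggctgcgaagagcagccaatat
The Notch3 window holds none of the 3 motifs. In Jag1 the matches are CGCGTG, the reverse complement of CACGCG, 249 bases before the RefSeq start, and CACGCG 171 bases before it. In Dll4 CACGCG lies 195 bases before the start. Genes that fell and a gene that rose thus both held CACGCG.

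Beyond these 9 genes, the pathway was described with a list of 98 symbols by role, older names included, of which 50 were in the tables and 49 were tested. Of these, 18 were higher and 31 lower, beside 50.5% and 49.3% of all genes tested, with a median log2 fold change of -0.27 beside 0.085. Without the 9 genes, 14 were higher and 26 lower. After the length and GC trend was subtracted, the threshold was passed by 16 higher and 20 lower genes, beside 37.4% and 37.0% of all genes tested, with a median of -0.081. The counts by role below are few genes each and are to be read beside the same shares. Each gene named below by role passed the threshold, with a limma adjusted p of at most 3.47e-04, as did 99.8% of all genes tested. Most were picked for the smallest p in their role, so their passing was set by that choice.

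Among ligands and ligand-like proteins other than Jag1 and Dll4, 4 of 6 rose and 2 fell (3 and 2 with the trend subtracted). Ccn3, a matricellular protein that can bind Notch1, fell to 0.682 (log2 -0.55 ± 0.034 SE). Of genes for cutting receptors and ligands, 2 of 5 rose and 3 fell: the proteases Adam10, Adam17 and Furin fell, and Ncstn and Psenen, which encode gamma-secretase subunits that are not its catalytic one, rose. The sheddases Adam10 and Adam17 fell to 0.668 and 0.749, Adam10 from 2213, 2381 and 2241 in Control to 1561, 1487 and 1514 in siSirt6. Ncstn, which encodes the subunit nicastrin, went from 3102, 3121 and 3234 to 4437, 4502 and 4575, a 1.43-fold rise. In both genes the groups lay well apart. With the trend subtracted, 1 of the 5 was higher and 3 lower: Psenen went from 0.21 to -0.26 on the log2 scale (limma adjusted p = 2.66e-07), and Furin from -0.17 to -0.015 (limma adjusted p = 0.687), which ended its call. Enzymes that add sugars to the receptors were divided, 3 of 6 higher and 3 lower (2 and 2 with the trend subtracted). The xylosyltransferases Gxylt1 and Gxylt2 went apart, Gxylt1 rising 1.59-fold and Gxylt2 falling to 0.577, and the fringe glycosyltransferase Lfng fell to 0.801.

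Of ubiquitin ligases and endocytosis factors, 2 of 8 rose and 6 fell. Numbl, a relative of the Notch antagonist Numb, rose 1.47-fold, and Mib1, which marks ligands for endocytosis in the sending cell, fell to 0.749. The fall of Mib1 lost its call once the trend was subtracted (log2 -0.074; limma adjusted p = 0.259). The ubiquitin ligase Nedd4 was at 0.876 of Control, a small fall that became a rise of 0.047 on the log2 scale, and 3 of the 8 genes were then higher and 3 lower. In the nuclear complex, 4 of 5 coactivators besides Rbpj fell and 1 rose. The histone acetyltransferases Ep300 and Kat2b fell to 0.590 and 0.643, Ep300 from 735, 720.5 and 696 to 427, 424 and 419. With the trend subtracted, 1 of these 5 was higher and 2 were lower. Of 10 corepressor genes, 8 fell and 2 rose: Tle1 of the Groucho family fell to 0.696, Fhl1, a LIM protein that has a form binding RBPJ, to 0.756, and Tle5, a short Groucho relative, rose 1.33-fold. With the trend subtracted, 2 of the 10 were higher and 5 lower.

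Smooth muscle and growth genes that have been linked to Notch formed a separate list of 17, with 10 in the tables. Of these, 7 rose and 3 fell, beside 50.5% and 49.3% of all genes tested, with a median log2 fold change of 0.32 beside 0.085; these counts were the same with the trend subtracted. Smooth muscle actin Acta2 rose 1.66-fold, while the adhesion receptor Vcam1 and the cyclin Ccnd1 fell to 0.427 and 0.536.

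**Figure D4:**
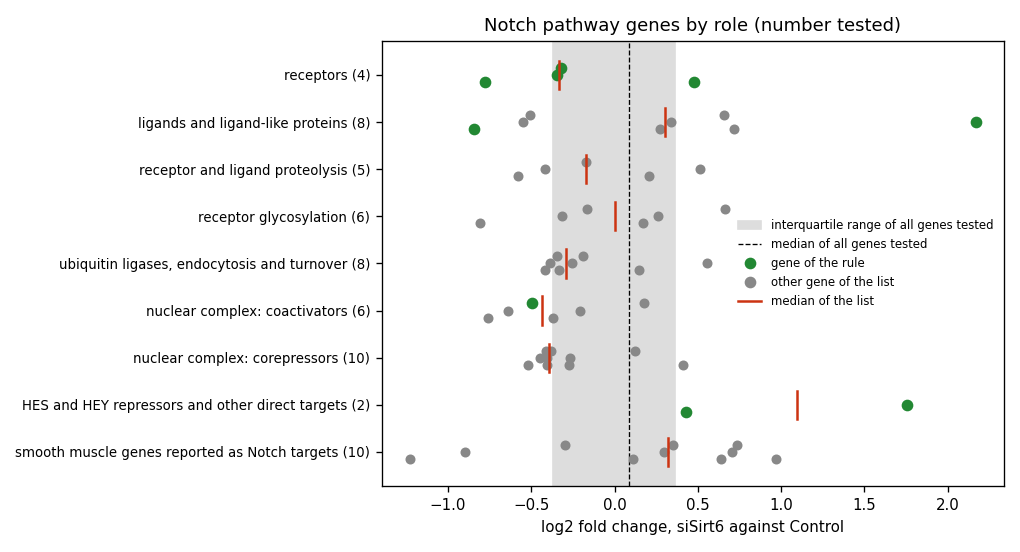
Log2 fold change in siSirt6 against Control (x axis) of each tested Notch pathway gene, by role, with the genes of the rule in green, the other listed genes in grey and each list's median as a red line; the grey band is the interquartile range and the dashed line the median (0.085) of all genes tested. Coactivators and corepressors lie mostly below 0, and Dll4 and Heyl stand at the right end.

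Notch4 and Dll4 are genes of endothelial cells as well, and endothelial markers moved with them. Of 24 such markers, 17 were in the tables and tested. Of these, 16 were higher and 1, Cd34, was lower, beside 50.5% and 49.3% of all genes tested. With the trend subtracted the counts were the same, beside 37.4% and 37.0%. The median log2 fold change was 1.09. A gene had to reach 10 in 3 libraries to be tested. Sox17, Cldn5, Sox18, Icam2 and Nos3 did so only with siSirt6 libraries counted, so the filter partly set their rise and the median. The summed level of the 17 markers was between 3921 and 4191 in Control and between 5867 and 5964 in siSirt6, and none was at 0 in all libraries. Flt1 had the highest level of them, with a mean of 1998 in Control and 2557 in siSirt6, a 1.28-fold rise. The 3 markers with the smallest p were the VEGF receptor Kdr, which rose 2.97-fold, Plvap of fenestrated endothelium, which rose 2.27-fold, and Ecscr, which rose 1.90-fold. In bulk samples a change in the number of cells of a type and a change of RNA per cell cannot be told apart, and the part of endothelial cells in the rises of Dll4, Notch4 and Heyl was not tested. Of the 13 smooth muscle markers tested, 10 were higher and 3 lower (9 and 1 with the trend subtracted), beside the same shares. Counts for the other cell types are few genes each and are to be read beside those shares too. Of 8 pericyte markers, 4 were tested, 3 higher and 1 lower (3 and 0 with the trend subtracted). Of 11 markers of adventitial fibroblasts 9 were tested, 4 higher and 5 lower (2 and 6 with the trend subtracted). Of 9 of Schwann cells and neurons 5 were tested, 1 higher and 4 lower (1 and 3 with the trend subtracted). Of 15 markers of macrophages and leukocytes 3 were tested, all higher, with log2 fold changes of at most 0.35, and once the trend was subtracted 1 was lower and 0 higher.

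**Figure D5:**
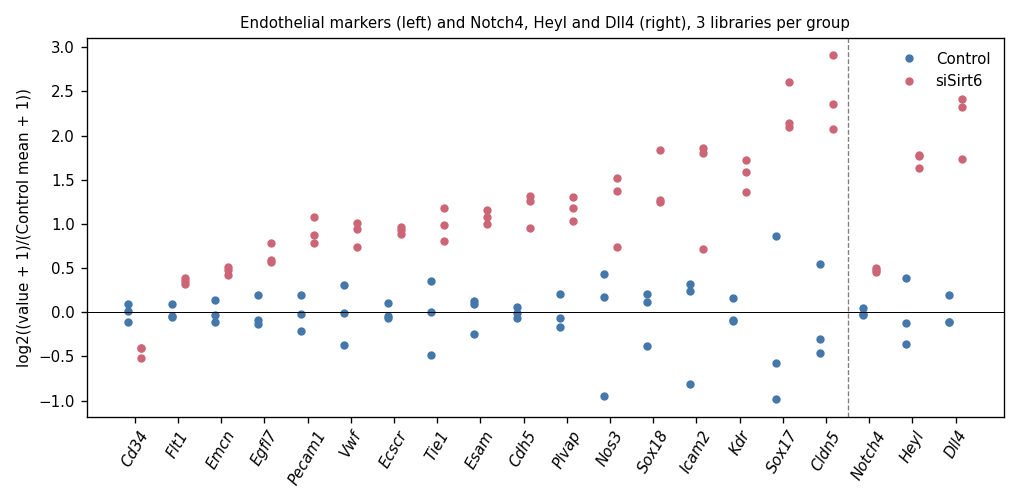
Level of 17 endothelial markers (left of the dashed line) and of Notch4, Heyl and Dll4 (right) in each library, as log2 of (value + 1) over (Control mean + 1); each point is a library. All markers but Cd34 lie higher in siSirt6 on average, with a median log2 fold change of 1.09, between Notch4 at 0.48 and Heyl at 1.76.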

How the data were processed

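RNA was sequenced in 3 Control and 3 siSirt6 libraries. Trizol was used for extraction and a strand-marking TruSeq kit for library making, per the labels' protocols. Per the submitters' processing notes, Trimmomatic, HISAT2, Cufflinks, HTSeq and mm10 were used. Open points are their versions and order, the strand setting of the counting, the scaling and how genes were selected: these are not given in the sources used here. Signal values, as deposited, are reads scaled by a single divisor in each library: 100% came out whole within 0.001 reads. The tables list mostly genes that differ. Genes on the opposite strand overlap Notch1, Notch3, Notch4, Dll4 and Rbpj, and their reads cannot be told apart if strand was ignored in counting. On the same strand, Gm42819 and Gm42820 overlap Notch2 and Mir6996 overlaps Notch1, and strand does not separate their reads.

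The 3 siSirt6 libraries were compared with the 3 Control libraries on log2(value + 1) by 2-sided moderated tests (limma 3.58.1, R 4.3.3, eBayes with trend and robust options). Log2 fold changes are on that scale and understate changes in low genes; N-fold changes are ratios of group means. A gene entered the test with a value of 10 or more in 3 or more libraries (7179 genes, with 205 left out; all 9 Notch genes passed, in both groups), with Benjamini-Hochberg adjustment over them and a threshold of 0.05. The design had named edgeR for raw counts and limma for normalised values. Count tests (edgeR 4.0.16, DESeq2 1.42.0, limma-voom) on recovered reads were alternatives on 5 libraries, since an automatic check of the unit did not accept the reads of siSirt6 replicate 1. Other alternatives were scaling, pseudocount, filter, subtracting a spline trend (5 df) in length and GC, adjustment over all 55536 annotated genes, the replicate block and leaving out each library. The limma test was tested on simulated data in which most genes did not change, unlike the genes listed here. Positions and lengths came from GENCODE vM21 on GRCm38 (mm10), which held 7332 of the 7384 identifiers. Promoter windows came from RefSeq.

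The members, lists, tests and alternatives were chosen with earlier results of these data known. Named are Sirt6, the genes of the rule, and the 3 members with the smallest p in each role group of the pathway list. For each member the 3 genes of most similar profile were named too. Endothelial markers were named by the same rank. Rbpj-ps3, Cd34, Flt1, Psenen, Furin, Gsn, Sox17, Cldn5, Sox18, Icam2 and Nos3 were named after their values were seen. Marker lists covered smooth muscle, endothelial cells, pericytes, fibroblasts, macrophages and leukocytes, and Schwann cells and neurons.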

Additional observations from a re-analysis of the deposited data

How the results depend on the processing

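Of the 9 Notch genes, 7 kept their direction and their call in every alternative run, as did Sirt6 (-2.46 to -2.06 on the log2 scale). Dll4 lay between 1.87 and 2.38, Heyl between 1.59 and 1.97, Notch4 between 0.36 and 0.71, Hes1 between 0.17 and 0.46, Rbpj between -0.62 and -0.24, Notch3 between -0.90 and -0.55 and Jag1 between -0.96 and -0.62. Dll4 gave no value under a filter of mean 5 CPM, which removes it. Once the length and GC trend was subtracted, Notch1 (-0.098) and Notch2 (-0.086) lost their calls, 3 of the 9 genes were lower in place of 5, and 20 of the wider pathway list in place of 31. Nedd4 then reversed to 0.047 and Psenen to -0.26. The CPM filter left 8 endothelial markers higher in place of 16, since it tests fewer genes. Scaling to listed totals shifted the median of all genes by -0.12, gave 13 of the wider list higher and 31 lower, and turned no Notch gene. Without 1 library, 4 of the 9 were higher and 5 lower each time. Libraries with the same number did not deviate together (r of -0.0195, 0.0268 and -8e-04). Between close replicates such deviations can be mostly noise, so this cannot decide whether the libraries were paired. With the replicate block 4 Notch genes were higher and 5 lower, and 3629 and 3540 of all genes. All 36 ratios kept their value within 1 SD as ratios of group sums. Depth limits Dll4, with 11 to 14 reads in Control.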

Other observations

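Genes whose levels followed a Notch gene most closely over the 6 libraries were sought by the smallest root-mean-square difference in centred log2(value + 1). With only 2 groups this mostly finds genes of the same fold change, and many genes came close: 194 lay within 0.1 of Notch3, 150 of Jag1, 851 of Rbpj and 1282 of Hes1. The nearest to Notch3 were Ep300, a coactivator of the Notch complex (difference 0.024), the taurine transporter Slc6a6 (0.024) and the selenium carrier Selenop (0.025). Nearest to Jag1 were Tcea3 (0.032), Tmtc1 (0.032) and Ak5 (0.033), and to Rbpj Rnf103 (0.013), Eps8 (0.021) and Sash1 (0.023). Notch1 and Notch2 shared Cyrib as nearest gene (0.025 and 0.020), followed by Ehd4 (0.028) and Zmynd11 (0.031) for Notch1 and by Kcnd1 (0.023) and Dab2ip (0.025) for Notch2. Nearest to Notch4 were Chd3 (0.015), Niban2 (0.016) and Rplp2 (0.018), and to Hes1 Map2k2 (0.015), Rps16 (0.018) and Camk1 (0.019). For Dll4 and Heyl 0 genes lay within 0.1. The nearest to Dll4 were Tnni3k (0.158), Krt14 (0.187) and H2-M9 (0.231), and to Heyl Enkur (0.158), the endothelial receptor Kdr (0.185) and the bradykinin receptor Bdkrb2 (0.200). Enkur, Krt14 and Bdkrb2 were low, with Control means of 2.59, 8.42 and 9.72 and siSirt6 means of 10.5, 44.8 and 40.1. With Control means below 10 they passed the filter only through siSirt6 values, so their likeness to genes that rose was partly set by it.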
